A study of Homo sapiens with 6 samples.

Results

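Cells take up, exchange and release amino acids through membrane carriers of several solute carrier families, and 6 of these families (SLC1, SLC3, SLC7, SLC36, SLC38 and SLC43) were followed here in T3M4, an established human cell line of pancreatic ductal adenocarcinoma. The genes were taken by symbol and biotype: protein-coding rows whose name opens with 1 of these family names and a number, 41 of 58735 genes in the count table. The symbol rule also caught SLC7A6OS, which lies opposite SLC7A6 and encodes a nuclear protein that is not a carrier, so 40 of the 41 genes encode carriers or their heavy chains. The libraries were 3 of T3M4 cells whose genotype label reads MUC16 knockout and 3 of T3M4 cells labelled as expressing MUC16, titled WT (KO and WT replicates 1 to 3). MUC16 is a large membrane mucin, and the design sets the transcriptome of cells labelled as lacking it against that of cells labelled as expressing it. Both groups carried the treatment label none and were grown in serum-containing DMEM, a medium rich in amino acids, until close to confluence. The labels give neither the guide nor the number of clones behind the knockout line. They do not call replicates independent cultures either, and each p-value therefore speaks only for the scatter among these 6 libraries, possibly technical.

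The families divide by what they carry and what drives them. System L exchangers such as SLC7A5 swap large neutral amino acids across the membrane without sodium, system A carriers of the SLC38 family draw small neutral amino acids in with sodium, and the SLC1 family holds both glutamate carriers and the sodium-dependent neutral exchangers of system ASC. Light chains of the SLC7 family reach the cell surface only when joined by a disulphide bond to a heavy chain, SLC3A2 (CD98, 4F2hc) for most of them and SLC3A1 (rBAT) for SLC7A9 and SLC7A13. Other members sit on the lysosome, where SLC38A9 reports arginine to the growth kinase mTORC1. In pancreatic cancer cells, which depend heavily on glutamine and cystine, SLC7A5, SLC1A5 and SLC7A11 are the best known of these genes.

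Total counts ran from 19088927 to 28612621 in the libraries labelled knockout and from 22963814 to 27647455 in those labelled WT. The targeted gene went against the labels. MUC16 had 292, 504 and 323 counts in the libraries labelled knockout, against 98, 144 and 90 in those labelled WT (log2 fold change 1.79 ± 0.17, SE), so directions are given for libraries as they are labelled. All 6 markers of ductal epithelium (KRT7, KRT8, KRT18, KRT19, EPCAM and CDH1) were present and higher in the libraries labelled knockout, summing to 5491 to 5756 CPM (counts scaled to library size with TMM factors) there and to 3488 to 3567 CPM in those labelled WT. The 3 acinar markers summed to 0 CPM in each library labelled knockout and to at most 0.134 CPM in those labelled WT. Fibroblast markers summed to 42.4 to 46.7 and 30.7 to 34.1 CPM in the libraries labelled knockout and WT, nearly all of it COL1A1, endothelial markers to 19.7 to 22.0 and 13.4 to 16.5 CPM, and immune markers to 3.27 to 4.45 and 2.64 to 2.86 CPM. Neuronal and glial markers, mostly MAP2, summed to 7.44 to 8.33 CPM in the libraries labelled knockout and to 12.7 to 15.3 CPM in those labelled WT. The part of these differences in the values below was not tested. In bulk RNA, fewer cells expressing a gene and less of its RNA per cell cannot be told apart.

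Amino acid carriers were mostly lower in the libraries labelled knockout. Of the 41 genes, 24 had enough counts to be tested, of which 14 were lower, 4 were higher and 6 did not pass (edgeR quasi-likelihood test, Benjamini-Hochberg adjusted p under 0.05 over 16655 genes). Those lower were SLC7A5, SLC3A2, SLC1A5, SLC38A2, SLC7A1, SLC38A1, SLC1A3, SLC7A11, SLC7A6, SLC36A1, SLC7A2, SLC38A9, SLC38A6 and SLC38A4, and those higher were SLC38A10, SLC7A8, SLC1A4 and SLC1A1. Over all genes tested 52.6% were called, 26.7% higher and 25.9% lower, against 75%, 16.7% and 58.3% of the tested members. The median log2 fold change of the 24 was -0.22, beside 0.00 over all genes. Groups did not overlap, with all 3 libraries on one side, for 21 of the 24 members and for 59% of all genes tested. Most changes were small: 6 of the 18 called members differed by 1.5-fold or more, and SLC38A4 alone by 2-fold or more.

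**Figure D1:**
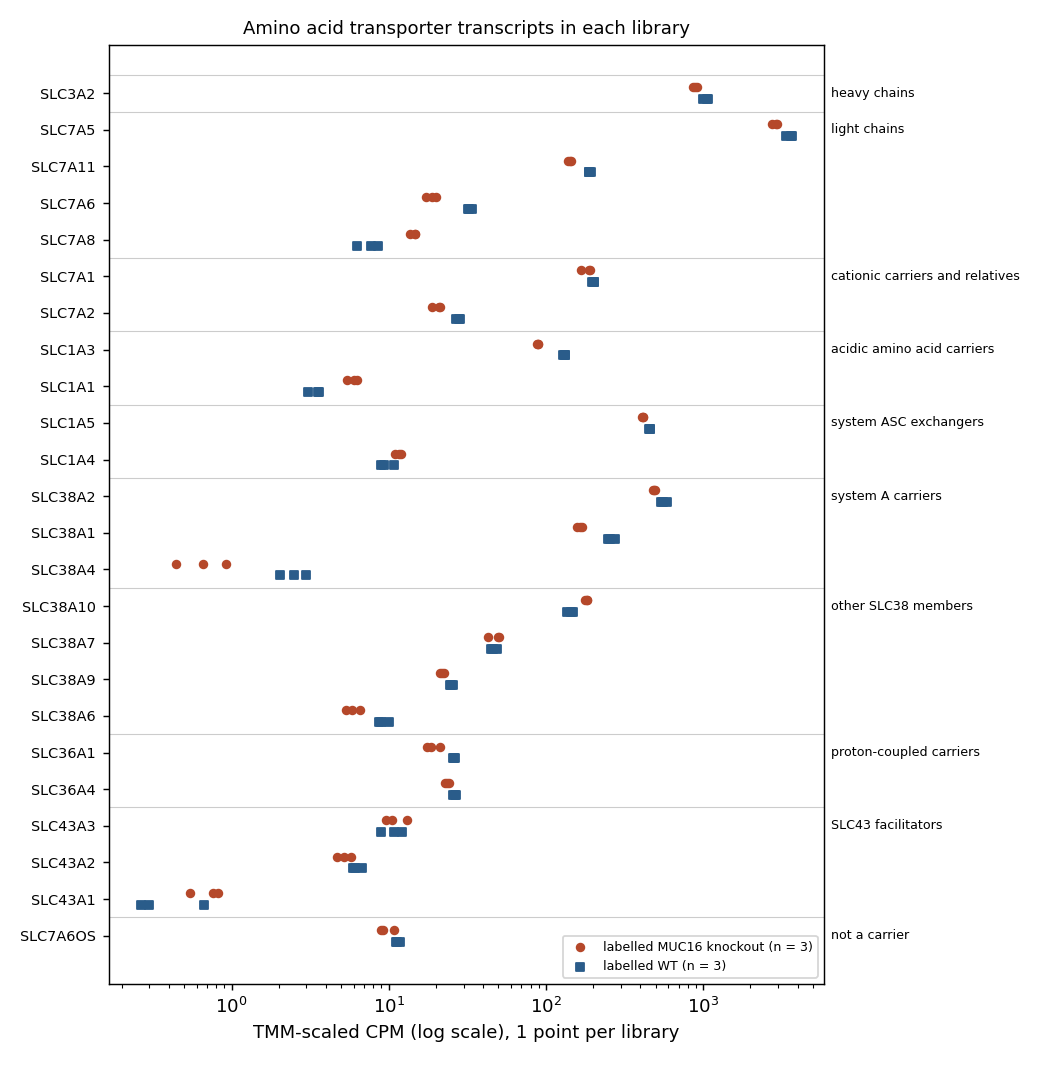
TMM-scaled CPM of the 24 tested genes in each library (log scale), by transport system, with circles for libraries labelled MUC16 knockout above squares for those labelled WT. SLC7A5 lies far above the other carriers, between 2748 and 2978 CPM in the libraries labelled knockout and between 3396 and 3675 CPM in those labelled WT.

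Strongly expressed genes fell more often than weak ones in this comparison. Among all genes with a mean of at least 16 CPM, a boundary set after the data were seen, 40.5% were lower and 24.3% higher, and among those under 16 CPM 10.4% were lower and 29.2% higher. Of the 15 members at or above 16 CPM, 12 were lower and 1, SLC38A10, was higher. Of the 9 members below it, SLC38A6 and SLC38A4 were lower and SLC7A8, SLC1A4 and SLC1A1 were higher. Set against the interquartile range of genes in the same bin of expression level, 11 members lay below it, 10 inside it and 3 (SLC7A8, SLC1A1 and SLC38A10) above it. The 11 include SLC7A6OS and SLC43A2, which did not pass. SLC7A5 (-0.309) lay only just below the lower quartile of the highest bin (-0.300), whose median level, 360 CPM, is far under its own. SLC1A5, SLC38A2, SLC3A2, SLC7A1 and SLC38A9 were lower yet inside that range.

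**Figure D2:**
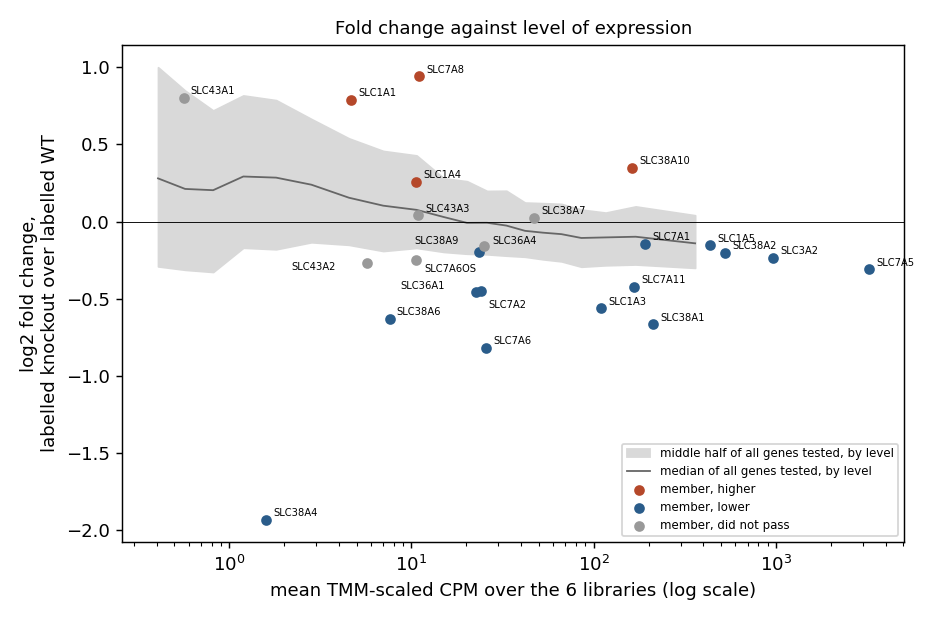
Log2 fold change (libraries labelled knockout over those labelled WT) against mean CPM (log scale) for the 24 tested members, over the median and interquartile range of all 16655 genes tested at each level; the shading stops at the centre of the highest bin, to which the members right of it belong. SLC38A4 (-1.93), SLC7A6 (-0.82), SLC38A1 (-0.66) and SLC38A6 (-0.63) lie furthest below the shaded range, and SLC7A8 (0.94) furthest above it.

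The promoters of 4 genes of the heterodimeric exchangers are shown because light chains that join the same heavy chain moved apart: SLC7A5 and SLC7A6 were lower, as was the heavy chain SLC3A2, and SLC7A8 was higher. Each is the stretch of 250 bases before a RefSeq start site (GRCh38.p14), written 5′ to 3′ along the gene. Capitals mark the E-box CACGTG in SLC7A5 and SLC7A8. In SLC3A2 and SLC7A6 they mark the core of the antioxidant response element, searched as TGACNNNGC or its reverse complement and found here as TGACNNNGC. SLC7A5 and SLC7A6 have 1 window each. SLC7A8 has 4 and SLC3A2 has 3, of which the 1 that holds a match was chosen for display, and the other 3 of SLC7A8 and 2 of SLC3A2 hold none of the motifs searched.
SLC7A5, chr16:87869508-87869757, minus strand: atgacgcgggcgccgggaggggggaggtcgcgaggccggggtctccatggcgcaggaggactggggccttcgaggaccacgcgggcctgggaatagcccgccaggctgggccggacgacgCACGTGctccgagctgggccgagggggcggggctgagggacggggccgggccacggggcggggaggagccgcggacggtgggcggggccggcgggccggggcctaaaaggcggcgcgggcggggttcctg
SLC7A8, chr14:23154394-23154643, minus strand: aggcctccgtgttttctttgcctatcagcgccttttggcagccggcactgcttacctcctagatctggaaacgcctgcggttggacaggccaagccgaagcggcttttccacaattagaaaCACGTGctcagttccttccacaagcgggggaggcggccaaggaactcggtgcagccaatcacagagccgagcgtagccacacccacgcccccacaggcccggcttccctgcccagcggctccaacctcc
SLC7A6, chr16:68264276-68264525, plus strand: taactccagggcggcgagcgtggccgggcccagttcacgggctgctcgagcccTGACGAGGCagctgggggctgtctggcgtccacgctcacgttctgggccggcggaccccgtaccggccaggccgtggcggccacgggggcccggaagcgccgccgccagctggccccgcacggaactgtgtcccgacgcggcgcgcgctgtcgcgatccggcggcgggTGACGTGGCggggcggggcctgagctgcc
SLC3A2, chr11:62881449-62881698, plus strand: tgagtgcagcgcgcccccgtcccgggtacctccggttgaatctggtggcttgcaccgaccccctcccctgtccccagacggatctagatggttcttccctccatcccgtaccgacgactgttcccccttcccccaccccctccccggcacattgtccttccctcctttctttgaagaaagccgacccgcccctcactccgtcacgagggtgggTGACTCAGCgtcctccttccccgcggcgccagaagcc
The E-box, bound by MYC and related factors, lay 130 to 125 bases before the start of SLC7A5 and 129 to 124 bases before this start of SLC7A8. The SLC7A6 window held antioxidant cores at 197 to 189 and 29 to 21 bases before the start, and the SLC3A2 window 1 at 37 to 29 bases. Across the 40 windows found for 21 of the 24 tested members, searched on both strands, 12.5% held the E-box, 12.5% the antioxidant core and 5.0% the amino acid response core TGATGNAA. The same shares over 35097 windows of all genes were 6.34%, 10.9% and 3.15%. SLC7A11, SLC7A2 and SLC43A3 had no RefSeq window and were not searched. The antioxidant core stood upstream of SLC1A3, SLC1A5, SLC3A2, SLC7A1 and SLC7A6, all lower. For SLC1A3, SLC1A5 and SLC3A2 it lay in 1 of 3 windows each. The E-box stood upstream of genes that were lower (SLC7A5, SLC1A5 and SLC36A1), of SLC7A8, which was higher, and of SLC43A1, which did not pass. For SLC1A5 this was 1 of 3 windows, and for SLC36A1 and SLC43A1 1 of 2. The amino acid response core stood upstream of SLC1A3 and SLC1A5, both lower, in 1 of 3 windows each. Of the factors known for these motifs, MYC RNA was lower, at 192.1 ± 3.40 CPM in the libraries labelled knockout and 218.4 ± 6.27 CPM in those labelled WT (SD, n = 3 each), a log2 fold change of -0.19 ± 0.04 (SE). NFE2L2, which encodes NRF2, was slightly higher, at 168.6 ± 7.55 CPM in the libraries labelled knockout and 155.8 ± 2.21 CPM in those labelled WT (0.11 ± 0.04). No binding of either factor was measured.

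The heavy chain SLC3A2 (ENSG00000168003, GRCh38 chromosome 11, 62856102 to 62888875) and its main partner SLC7A5 (LAT1, ENSG00000103257, chromosome 16, 87830023 to 87869488) fell together. SLC7A5, which exchanges leucine and other large neutral amino acids, had 2978, 2935 and 2748 CPM in the libraries labelled knockout, against 3396, 3675 and 3659 CPM in those labelled WT. The groups did not overlap, and the log2 fold change was -0.31 ± 0.04 (SE, edgeR adjusted p = 1.07e-06), a mean ratio of 0.807. SLC3A2 had 884.7, 859.4 and 916.8 CPM in the libraries labelled knockout and 1007, 1071 and 1056 CPM in those labelled WT (log2 fold change -0.24 ± 0.04, adjusted p = 2.35e-05). Both calls held with cyclic loess scaling, which adjusts for the level of expression, but at smaller sizes, -0.15 for SLC7A5 (adjusted p = 0.00472) and -0.09 for SLC3A2 (0.0442). SLC7A5 reads can also be shared with near-identical pseudogenes, of which SLC7A5P1 had 29 to 51 counts in the libraries labelled knockout and 36 to 80 in those labelled WT, and SLC7A5P2 had 0 in each.

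Per unit of length, SLC7A5 stood far above the other carriers. FPKM, as the authors deposited them, are fragments scaled by depth and by the length listed for each gene. For SLC7A5 they averaged 601.6 ± 25.8 in the libraries labelled knockout and 751.1 ± 31.6 in those labelled WT (SD, n = 3 each). Over both groups SLC7A5 ranked 24th of 16715 protein-coding genes in the authors' table. It made up 55.3% ± 1.16 of the summed FPKM of the 30 carrier genes with a listed value in the libraries labelled knockout and 57.0% ± 0.929 in those labelled WT. SLC3A2 followed at 169.4 ± 5.74 and 201.1 ± 6.04 FPKM, then SLC1A5 at 122.3 ± 1.70 and 137.1 ± 1.59 FPKM and SLC38A2 at 73.3 ± 0.712 and 85.0 ± 4.12 FPKM. These values did not overlap between neighbours in the order. SLC7A1, SLC38A1, SLC38A10, SLC1A3 and SLC7A11 formed a middle tier, between 14.0 and 27.4 FPKM in single libraries, and their order differed between the groups. The other 10 carrier genes, with at most 1 count over the 6 libraries, have none listed. Summed over the 30 genes, the level was 1087 ± 25.2 FPKM in the libraries labelled knockout and 1318 ± 34.2 FPKM in those labelled WT.

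The other light chains moved in both directions. SLC7A6 (y+LAT2, chromosome 16, 68264516 to 68301823), which exchanges cationic for neutral amino acids, had 18.8, 19.96 and 17.2 CPM in the libraries labelled knockout, against 34.0, 32.5 and 32.0 CPM in those labelled WT. The groups lay well apart (log2 fold change -0.82 ± 0.07, SE, adjusted p = 2.38e-09), and this was the second largest fall among the members. Its 3′ part overlaps SLC7A6OS on the opposite strand, and the library kit did not mark strand, so reads of the overlap cannot be told apart. SLC7A6OS itself had 9.21, 10.9 and 8.88 CPM in the libraries labelled knockout and 11.4, 11.9 and 11.1 CPM in those labelled WT and did not pass (-0.25 ± 0.10, adjusted p = 0.0518).

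SLC7A11 (xCT, chromosome 4, 138164097 to 138242349) imports cystine in exchange for glutamate and so feeds glutathione synthesis. It had 145.7, 142.5 and 137.6 CPM in the libraries labelled knockout and 189.0, 193.5 and 187.9 CPM in those labelled WT, with no overlap (log2 fold change -0.42 ± 0.04, SE, adjusted p = 1.09e-08). Its antisense RNA SLC7A11-AS1, which overlaps it, had only 6, 11 and 9 counts in the libraries labelled knockout and 23, 15 and 26 in those labelled WT.

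SLC7A8 (LAT2, chromosome 14, 23125295 to 23183674) was the exception. This exchanger resembles SLC7A5 but accepts small neutral amino acids too, and it had 14.8, 14.8 and 13.7 CPM in the libraries labelled knockout, against 8.54, 6.28 and 7.71 CPM in those labelled WT. The log2 fold change of 0.94 ± 0.11 (SE, adjusted p = 1.71e-07) was the largest rise among the members. The ratio of SLC7A5 to SLC7A8 FPKM was 254.2, 250.6 and 253.4 in the libraries labelled knockout and 502.2, 738.7 and 599.4 in those labelled WT, so SLC7A5 remained far more abundant in each library. SLC7A7 and SLC7A9 were below the count filter with at most 13 counts in a library, and SLC7A10 and SLC7A13 had 0 counts. SLC3A1, the other heavy chain, had 1 count in all.

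The ratio of the summed light chains to the heavy chain differed little. Light chains that pair with SLC3A2, summed over SLC7A5, SLC7A6, SLC7A7, SLC7A8, SLC7A10 and SLC7A11, stood at 3.79, 3.85 and 3.38 times the FPKM of SLC3A2 in the libraries labelled knockout and at 3.81, 3.87 and 3.90 times in those labelled WT. The groups overlapped, with a log2 difference of -0.07 (exact permutation test, two-sided, p = 0.2, where 3 against 3 cannot go below 0.1). Without KO replicate 3, the lowest library, the difference was -0.02. SLC7A5 made up nearly all of this sum, and its own ratio to SLC3A2 also differed by -0.07. The sum therefore says little of the other light chains. How far the ratio lies above 1 depends on the listed gene lengths, 4745 bases for SLC7A5 and 5178 for SLC3A2. Lengths of the transcripts present were not measured. Beside the SLC3A2 log2 fold change of -0.24, SLC7A6 fell further (-0.82) and SLC7A8 rose (0.94). For SLC7A11 alone the ratio to SLC3A2 was 0.0860 ± 0.00470 in the libraries labelled knockout and 0.0977 ± 0.00270 in those labelled WT (SD, n = 3 each, exact permutation p = 0.1, the smallest possible).

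**Figure D3:**
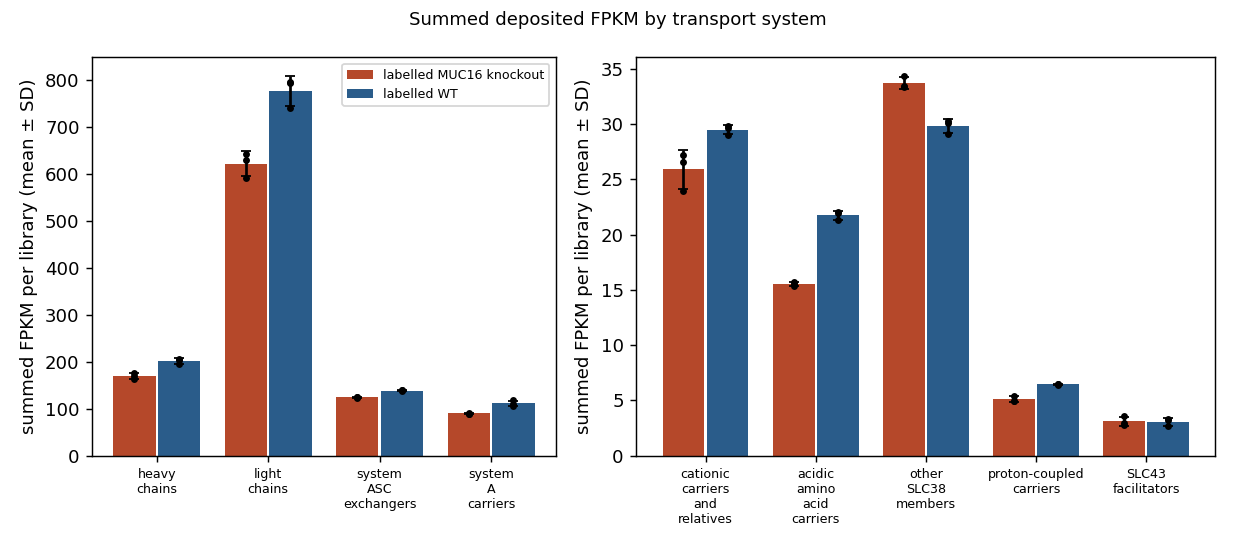
Deposited FPKM summed over the members of each transport system other than the barely detected system N, as mean ± SD with 1 point per library, bars for libraries labelled MUC16 knockout left of those labelled WT and abundant systems in the left panel. Light chains summed to 621.1 in the libraries labelled knockout and 776.4 in those labelled WT, while the other SLC38 members summed to 33.7 and 29.8.

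All 3 system A genes fell. SLC38A1 (SNAT1, chromosome 12, 46183063 to 46270017), a sodium-coupled importer of glutamine and alanine, had 164.2, 169.3 and 158.7 CPM in the libraries labelled knockout, against 274.9, 249.8 and 255.2 CPM in those labelled WT. The groups were far apart (log2 fold change -0.66 ± 0.04, SE, adjusted p = 1.71e-11), a mean ratio of 0.631. SLC38A2 (SNAT2, chromosome 12, 46358189 to 46372867), the member induced when amino acids run short, fell by less, with 482.6, 494.4 and 491.6 CPM in the libraries labelled knockout and 590.5, 538.0 and 560.6 CPM in those labelled WT (-0.20 ± 0.04, adjusted p = 0.000211). With cyclic loess scaling SLC38A2 did not pass (-0.07, adjusted p = 0.163).

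SLC38A4 (SNAT4, chromosome 12, 46764761 to 46832408), known as a liver carrier, was scarce and fell most, with 18, 17 and 13 counts in the libraries labelled knockout and 78, 55 and 56 in those labelled WT. That is 0.675 ± 0.239 CPM in the libraries labelled knockout and 2.50 ± 0.458 CPM in those labelled WT (SD, n = 3 each, log2 fold change -1.93 ± 0.29, SE, adjusted p = 6.06e-06). It lies inside the lincRNA gene AC008014.1 on the opposite strand, whose 2.04 CPM in the libraries labelled knockout and 1.60 CPM in those labelled WT did not differ past the threshold (adjusted p = 0.246). The system A genes are neighbours within 649 kb. Of 17 other genes tested in that stretch and 1 Mb to either side, a window chosen after these values were seen, 8 were lower and 0 higher (median log2 fold change -0.27), among them RAPGEF3 (-0.93), AMIGO2 (-0.66), HDAC7 (-0.42) and SCAF11 (-0.29). The 9 others did not pass, with edgeR adjusted p-values from 0.0933 to 0.853. Among them AC025031.2, AC025031.4, LINC02156, AC004241.1 and AC004466.3 were under 1 CPM in both groups. Over all genes tested 25.9% were lower and 26.7% higher, and among those with at least 16 CPM 40.5% and 24.3%.

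Of the 4 tested SLC38 genes outside systems A and N, 1 was higher, 2 were lower and 1 did not pass. SLC38A10 (chromosome 17, 81245000 to 81295547) rose, the 1 gene of the 6 families above 16 CPM to do so, with 178.9, 184.2 and 184.1 CPM in the libraries labelled knockout and 135.8, 148.9 and 145.6 CPM in those labelled WT (log2 fold change 0.35 ± 0.04, SE, adjusted p = 4.98e-07). SLC38A6 had 5.37, 6.61 and 5.80 CPM in the libraries labelled knockout and 8.69, 8.92 and 10.1 CPM in those labelled WT (-0.63 ± 0.12, adjusted p = 0.00012), and it overlaps TRMT5 on the opposite strand. SLC38A7, which exports glutamine and asparagine from lysosomes, had 49.6, 50.1 and 43.2 CPM in the libraries labelled knockout, against 49.0, 44.9 and 46.3 CPM in those labelled WT. Its groups overlapped (0.02 ± 0.06, adjusted p = 0.774).

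SLC38A9, the lysosomal arginine sensor (chromosome 5, 55625845 to 55773194), had 21.1, 21.9 and 22.6 CPM in the libraries labelled knockout and 24.8, 25.6 and 24.7 CPM in those labelled WT (-0.19 ± 0.07, SE, adjusted p = 0.0247). This call was lost without KO replicate 1 (adjusted p = 0.0847), without KO replicate 2 (0.0598), without WT replicate 2 (0.0702) and with upper-quartile factors (0.105). The system N genes SLC38A3 and SLC38A5 were not tested, with at most 1 and 15 counts in a library. SLC38A5 had 4, 2 and 8 counts in the libraries labelled knockout and 12, 9 and 15 in those labelled WT.

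**Figure D4:**
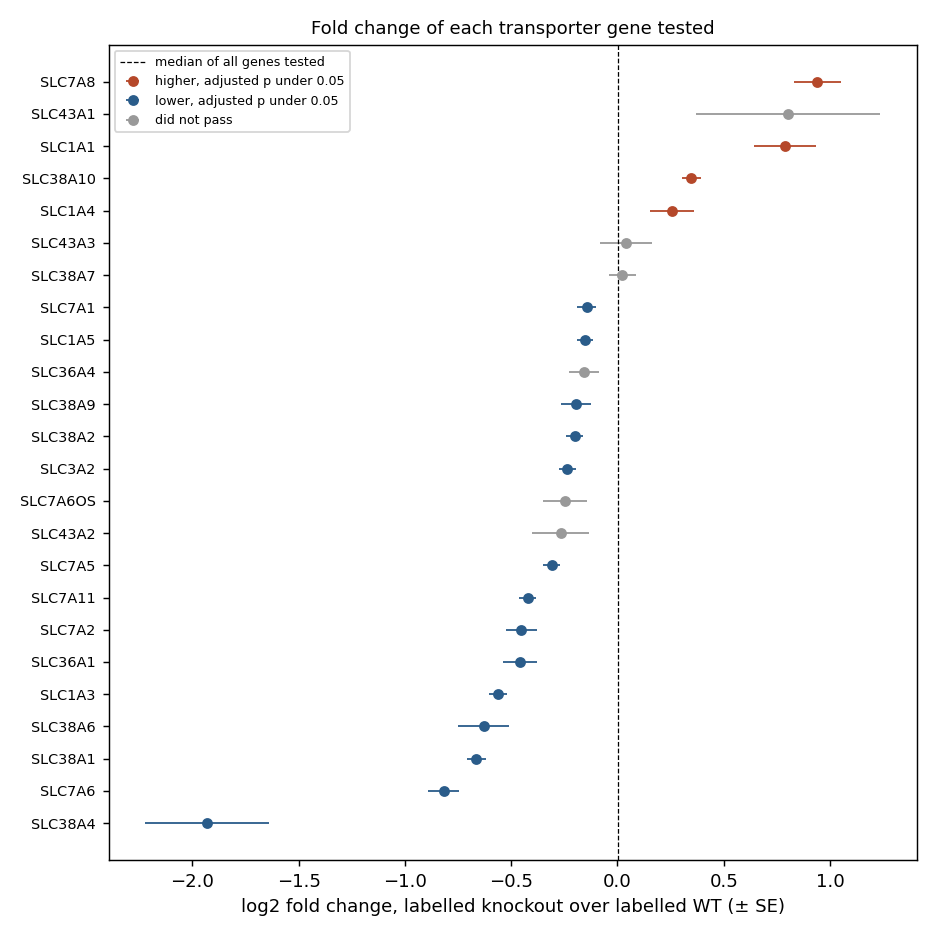
Log2 fold change ± SE of the 24 tested genes (libraries labelled knockout over those labelled WT, edgeR), sorted by size, with the median of all genes tested as a dashed line. The 14 genes that fell run from SLC38A4 (-1.93) to SLC7A1 (-0.15), and the 4 that rose from SLC1A4 (0.26) to SLC7A8 (0.94).

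The 2 glutamate carriers that were tested went opposite ways. SLC1A3 (EAAT1, chromosome 5, 36606355 to 36688334), best known from astrocytes, had 89.3, 89.4 and 88.4 CPM in the libraries labelled knockout and 133.0, 128.5 and 132.7 CPM in those labelled WT. The libraries within each group lay close together, and the fall was clear of both spreads (log2 fold change -0.56 ± 0.04, SE, adjusted p = 1.83e-10). SLC1A1 (EAAT3, chromosome 9, 4490444 to 4587469), which carries glutamate and cysteine, had 6.24, 5.99 and 5.43 CPM in the libraries labelled knockout and 3.07, 3.53 and 3.59 CPM in those labelled WT (0.79 ± 0.15, adjusted p = 7.89e-05). SPATA6L overlaps it on the opposite strand. Per length SLC1A3 was still the stronger, at 14.1 ± 0.0933 FPKM in the libraries labelled knockout and 20.9 ± 0.427 FPKM in those labelled WT, beside 1.46 ± 0.105 and 0.847 ± 0.0686 FPKM for SLC1A1 (SD, n = 3 each). The glutamate carriers SLC1A2, SLC1A6 and SLC1A7 had 1, 1 and 3 counts over the 6 libraries.

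In system ASC, SLC1A5 (ASCT2, chromosome 19, 46774883 to 46788594), a sodium-dependent exchanger that carries glutamine, had 415.3, 407.0 and 414.4 CPM in the libraries labelled knockout and 451.8, 463.8 and 459.3 CPM in those labelled WT. The difference was small, a mean ratio of 0.899, though without overlap (log2 fold change -0.15 ± 0.04, SE, adjusted p = 0.00158), and it did not pass with cyclic loess scaling (-0.02, adjusted p = 0.608). SLC1A4 (ASCT1), which prefers alanine, serine and cysteine, had 11.6, 10.97 and 12.1 CPM in the libraries labelled knockout and 8.92, 9.29 and 10.8 CPM in those labelled WT (0.26 ± 0.10, adjusted p = 0.0404). That call was lost without KO replicate 1 (adjusted p = 0.0857), KO replicate 3 (0.119), WT replicate 1 (0.159) or WT replicate 2 (0.116), and with DESeq2 (0.0830), no filter (0.0845) or cyclic loess (0.183).

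The cationic carriers of arginine, lysine and ornithine fell. SLC7A1 (CAT1, chromosome 13, 29509410 to 29595688) had 190.4, 187.0 and 167.6 CPM in the libraries labelled knockout and 195.5, 203.2 and 203.5 CPM in those labelled WT (log2 fold change -0.15 ± 0.05, SE, adjusted p = 0.0119). KO replicate 3 was the lowest library, and the call was lost without it (-0.09, adjusted p = 0.0864), without WT replicate 3 (0.0509), with upper-quartile factors (0.12) and with cyclic loess (0.524). SLC7A2 (CAT2) had 20.9, 21.2 and 18.8 CPM in the libraries labelled knockout, against 28.6, 26.6 and 27.9 CPM in those labelled WT (-0.45 ± 0.07, adjusted p = 1.72e-05). SLC7A3, SLC7A4 and SLC7A14 had 1 count each over the 6 libraries.

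Among the proton-coupled carriers, SLC36A1 (PAT1), which moves small neutral amino acids out of lysosomes and across the cell membrane, had 21.2, 18.6 and 17.4 CPM in the libraries labelled knockout and 25.8, 25.9 and 26.5 CPM in those labelled WT (log2 fold change -0.46 ± 0.08, SE, adjusted p = 3.18e-05). SLC36A4 had 23.5, 22.9 and 24.3 CPM in the libraries labelled knockout and 25.7, 26.9 and 26.3 CPM in those labelled WT, without overlap but short of the threshold (-0.16 ± 0.07, adjusted p = 0.0611). SLC36A2 had 2 counts, both in WT replicate 1, and SLC36A3 had 0. None of the 3 SLC43 genes, facilitators that include the neutral carriers SLC43A1 (LAT3) and SLC43A2 (LAT4), passed. Their log2 fold changes were 0.80 ± 0.43 for SLC43A1, -0.27 ± 0.13 for SLC43A2 and 0.04 ± 0.12 for SLC43A3 (SE, edgeR adjusted p = 0.126, 0.0979 and 0.807). Without WT replicate 3, which held 15 of the 30 SLC43A1 counts in the libraries labelled WT, SLC43A1 passed (1.30, adjusted p = 0.0404).

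Among the fallen genes, SLC1A3, SLC36A1 and SLC38A9, lie on chromosome 5, where many genes fell. Of its 781 genes tested 46.9% were lower, against 24.9% on the other chromosomes, with medians of -0.20 and 0.01. SLC38A9 (-0.19) was close to the chromosome's median, whereas SLC36A1 (-0.46) and SLC1A3 (-0.56) lay below it. With TMM factors taken without chromosome 5, 16 members were lower and 4 higher. The part of the chromosome in these values was not tested.

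The 17 genes that were not tested held at most 15 counts in a library. Of these, 4 had 0 counts in all libraries (SLC7A10, SLC7A13, SLC36A3 and SLC38A11) and 9 had 1 to 3 counts over the 6 libraries. The other 4 were SLC38A5, SLC7A7 (23 counts in all in the libraries labelled knockout and 29 in those labelled WT), SLC7A9 and SLC38A8. No test was made of them. The SLC38A5 libraries did not overlap, with 14 counts in all in the libraries labelled knockout and 36 in those labelled WT. The authors' deposited table, from the same counts, lists 31 of the 41 genes. With a threshold of 0.05 set here on its adjusted p-values, 16 of them passed, 3 higher and 13 lower. SLC1A4 and SLC38A9 did not pass there.

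Amino acid carriers outside the 6 families went both ways. Of 22 tested, 7 were higher and 5 lower (median log2 fold change 0.00), beside 26.7% higher and 25.9% lower of all genes tested. The mitochondrial carrier of basic amino acids SLC25A29 rose, at 23.8 ± 0.685 CPM in the libraries labelled knockout and 11.6 ± 1.54 CPM in those labelled WT (SD, n = 3 each, log2 fold change 1.03), as did the lysosomal carrier SLC17A5 (0.77). The taurine carrier SLC6A6 fell, at 66.6 ± 6.75 and 113.7 ± 2.60 CPM (-0.77), and SLC6A19 (-2.02) was under 1 CPM in both groups. SLC6A14, a concentrative carrier of neutral and cationic amino acids known from pancreatic cancer and named after its values were seen, was at 260.9 ± 6.95 CPM in the libraries labelled knockout and 180.5 ± 4.69 CPM in those labelled WT (0.53 ± 0.04, SE, adjusted p = 1.89e-10). It had the highest CPM of the carriers in this list.

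Genes of the response to amino acid shortage also went both ways, 8 higher and 5 lower of 20 tested (median 0.11). Of all genes tested, 26.7% were higher and 25.9% lower. ATF4, its central transcription factor, was at 344.7 ± 19.5 CPM in the libraries labelled knockout and 344.5 ± 5.84 CPM in those labelled WT (SD, n = 3 each, adjusted p = 1.00). CTH, which makes cysteine by transsulphuration, rose (log2 fold change 1.16). It had 45.5 ± 5.05 CPM in the libraries labelled knockout and 20.4 ± 1.70 CPM in those labelled WT. VLDLR (0.89), ATF3 (0.76) and NUPR1 (0.75) rose too, at low levels. Their means were 5.91, 9.94 and 7.59 CPM in the libraries labelled knockout and 3.18, 5.89 and 4.49 CPM in those labelled WT. Genes past the threshold outside the naming rule were DDIT4, CEBPB, SESN2 and STC2, all higher, and the 5 lower genes. The lower genes were ATF5 (-0.59), PHGDH (-0.50), PSAT1 (-0.24), VEGFA (-0.22) and EIF2AK4 (-0.16). ASNS, the asparagine synthetase, was under 1 CPM in both groups, at 0.486 ± 0.0871 and 0.573 ± 0.181 CPM.

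Of 30 tested genes that sense amino acids at the lysosome, 6 were higher and 14 lower (median -0.11). Beside this list and the enzymes below, 26.7% of all genes tested were higher and 25.9% lower. Among all genes with at least 16 CPM, these shares were 24.3% and 40.5%. The Rag GTPase gene RRAGD rose to 2.61 ± 0.274 CPM in the libraries labelled knockout, against 0.428 ± 0.147 CPM in those labelled WT (log2 fold change 2.61), with RRAGA (0.49) and RRAGB (0.42) also higher, while the kinase MTOR fell (-0.44). Enzymes of glutamine, glutamate, cysteine and arginine metabolism were 7 higher and 12 lower of 26 tested (median -0.11). ODC1, which makes putrescine from ornithine, fell (-1.03), CTH rose as above, and GPT (1.81) and PRODH (1.70) rose at low levels, with PRODH at 1.82 ± 1.05 CPM in the libraries labelled knockout and 0.603 ± 0.914 CPM in those labelled WT. PRODH passed although its groups overlapped, with 1 library of each group well above the others of its group.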

How the data were processed

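RNA-seq of 6 T3M4 libraries was analysed from 2 tables. Per the labels' protocols, the library kit was NEBNext Ultra RNA, an unstranded kit. The submitters' processing notes name fastp, HISAT2, STAR and DESeq, and GRCh38 (hg38) as build. Their versions and roles, and how reads were counted, are not stated. The deposited count table holds raw read counts per gene. A second table holds the authors' FPKM, log2 fold changes and p-values, quoted only as the authors' deposited table; its FPKM, as deposited, are used to compare levels between genes. The IDs and positions of all 41 members equal those of GENCODE release 29.

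Libraries were grouped by the genotype label into 3 knockout and 3 MUC16 expressing. The main test was the two-sided quasi-likelihood test of edgeR 4.0.16 in R 4.3.3 (glmQLFit and glmQLFTest with no term but group, TMM factors, filterByExpr with minimum count 10 and minimum total 15), leaving 16655 genes. Benjamini-Hochberg adjustment ran over all of these, with a threshold of 0.05. SEs were derived from the F statistic. CPM carry the TMM factors and are given as mean ± SD. The step was run on simulated counts in which a small part of the genes changed, in random directions and with no trend by level. That run does not bear on scaling in these data, where 52.6% of genes were called. Counts of replicates varied beyond sampling noise, with chi-square values of 2.43 to 6.27 times their degrees of freedom, and all 6 libraries were kept apart. Same-numbered libraries did not deviate together (correlations 0.01, 0.02 and -0.02). Promoters are from the RefSeq table (GRCh38.p14), searched for letters on both strands.

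The members, transport systems and lists were chosen with earlier results of these data known. Values per library are given for members past the threshold with at least 1 CPM in 1 group and for the 10 highest by FPKM, and outside the families for up to 4 genes of each list past the threshold with the largest changes, with MUC16, MYC, NFE2L2 and ATF4; genes outside this rule are said to be so or overlap a member. The alternatives were other factors, filters, tests (DESeq2 1.42.0, limma 3.58.1), a replicate block, leaving out each library, a threshold of 0.01 and protein-coding genes alone.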

Additional observations from a re-analysis of the deposited data

How the results depend on the processing

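Over 17 alternatives, from 3 to 5 members were higher and from 12 to 16 lower in the libraries labelled knockout. Of the 18 called members, 13 kept their direction and their call in each alternative; SLC1A4, SLC38A9, SLC7A1, SLC1A5 and SLC38A2 lost theirs in at least 1. Leaving out each library gave 3 to 5 members higher, 13 or 14 lower and 7921 to 8221 genes called of those tested. With the replicate number as a block, 4 members were higher and 15 lower, 8442 genes were called, and SLC7A6OS passed (-0.25, adjusted p = 0.0496); no other member's call changed. The numbers do not pair the samples. Signs reversed only for SLC43A3 and SLC38A7, which did not pass in any alternative: SLC43A3 was -0.035 with cyclic loess and ran from -0.089 (without KO replicate 1) to 0.15 (without WT replicate 1) when libraries were left out, and SLC38A7 ran from -0.015 (without KO replicate 2) to 0.094 (without KO replicate 3). SLC7A6OS also passed with DESeq2 size factors (adjusted p = 0.0477), limma-voom (0.0471), factors without chromosome 5 (0.0436), cyclic loess (0.0101) and without KO replicate 2 (0.0153), SLC36A4 with factors without chromosome 5 (0.0477) and SLC43A2 with cyclic loess (0.0131). The light chain to SLC3A2 difference (log2 -0.07) ran from -0.11 to -0.02 without each library, was -0.07 in matched pairs of a replicate block, -0.08 on counts, -0.07 for SLC7A5 alone and -0.19 for SLC7A11 alone. The cause of these shifts was not tested. SLC43A1 gave no value under the stricter filter. Counts limit SLC38A4, SLC43A1 and the untested members.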
